A study of Homo sapiens with 24 samples.

Results

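The COP9 signalosome is a protein complex that takes the small modifier NEDD8 off cullins, the scaffolds of a large class of ubiquitin ligases. Removal of NEDD8 switches a cullin ligase off and lets it exchange the adaptor that chooses its substrates. The complex holds a catalytic metalloprotease, COPS5, a related subunit without catalytic activity, COPS6, and PCI-domain subunits, among them GPS1, COPS2, COPS3, COPS4, COPS7A or its paralog COPS7B, and COPS8. The 8 genes GPS1, COPS2, COPS3, COPS4, COPS5, COPS6, COPS7A and COPS8 are described here, of 11963 genes with a named probe set. They were chosen by membership of the complex, and the complex was selected on the log2 differences between microRNA and scramble in AGO2-bound RNA from these same arrays. The contrasts of AGO2-bound RNA are therefore given as a description, without p-values, and tests are given for total RNA. Each gene is represented by the probe set with the highest mean over 24 arrays, and all 8 lay above the filter on low signal.

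The cells were LNCaP, a human prostate cancer line of luminal, androgen-responsive character, and every group was LNCaP cells nucleofected with 2.5 µg of plasmid. The plasmid supplied a scramble microRNA, the control, or else miR-205, miR-203 or miR-130a. Each transfection gave RNA of whole cells (total RNA) and RNA that came down with an antibody to AGO2, the Argonaute that loads mature microRNAs and brings them to transcripts. This gave 8 groups of 3 arrays, labelled as biological replicates, with 2 µg of RNA on each array. An immunoprecipitate with a control antibody is not analysed here, and the promoter that drives the plasmids is not given in the sources used here. The series asked which transcripts each microRNA binds directly.

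A microRNA finds its targets mainly through its seed, bases 2 to 8 from the 5′ end. The mature sequences of miR-203a-3p and miR-205-5p are shown for reference, with the seed in capitals. No comparison below uses these sequences. They are from RefSeq (GRCh38.p14), where the miR-203a-3p arm lies at chr14:104117469-104117490 and the miR-205-5p arm at chr1:209432166-209432187, both on the plus strand. The labels do not name the arm. For miR-130a, the arm miR-130a-3p is named only.
hsa-miR-203a-3p: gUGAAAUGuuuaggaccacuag
hsa-miR-205-5p: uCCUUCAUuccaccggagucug
These seeds, UGAAAUG and CCUUCAU, are not the same. Seed matches in the transcripts of the subunits are not analysed here.

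Values are log2 expression as deposited, and a difference of 1 is 2-fold. Between 39.9% and 41.5% of probe sets on an array lay within 0.05 of the lowest value, and precision is limited by having 3 arrays in a group. The lowest value took 3 levels, 1 for the 12 arrays of miR-205 and scramble and 1 each for the 6 arrays of miR-130a and of miR-203. These sets appear to be separate normalization runs, though no label names a run. Below, run means a set of arrays with the same lowest value. For miR-130a and miR-203, run and transfection cannot be told apart. All 7 measured luminal prostate markers, KLK3 among them, were above the filter on every total RNA array, and of 6 measured markers of basal cells or other prostate lines none was above it on all 12. Of those 6, KRT5, CAV1 and CD44 were at the lowest value on all 12 total RNA arrays, and VIM, at 2.64 to 3.39, was above the filter on 6 of them.

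**Figure D1:**
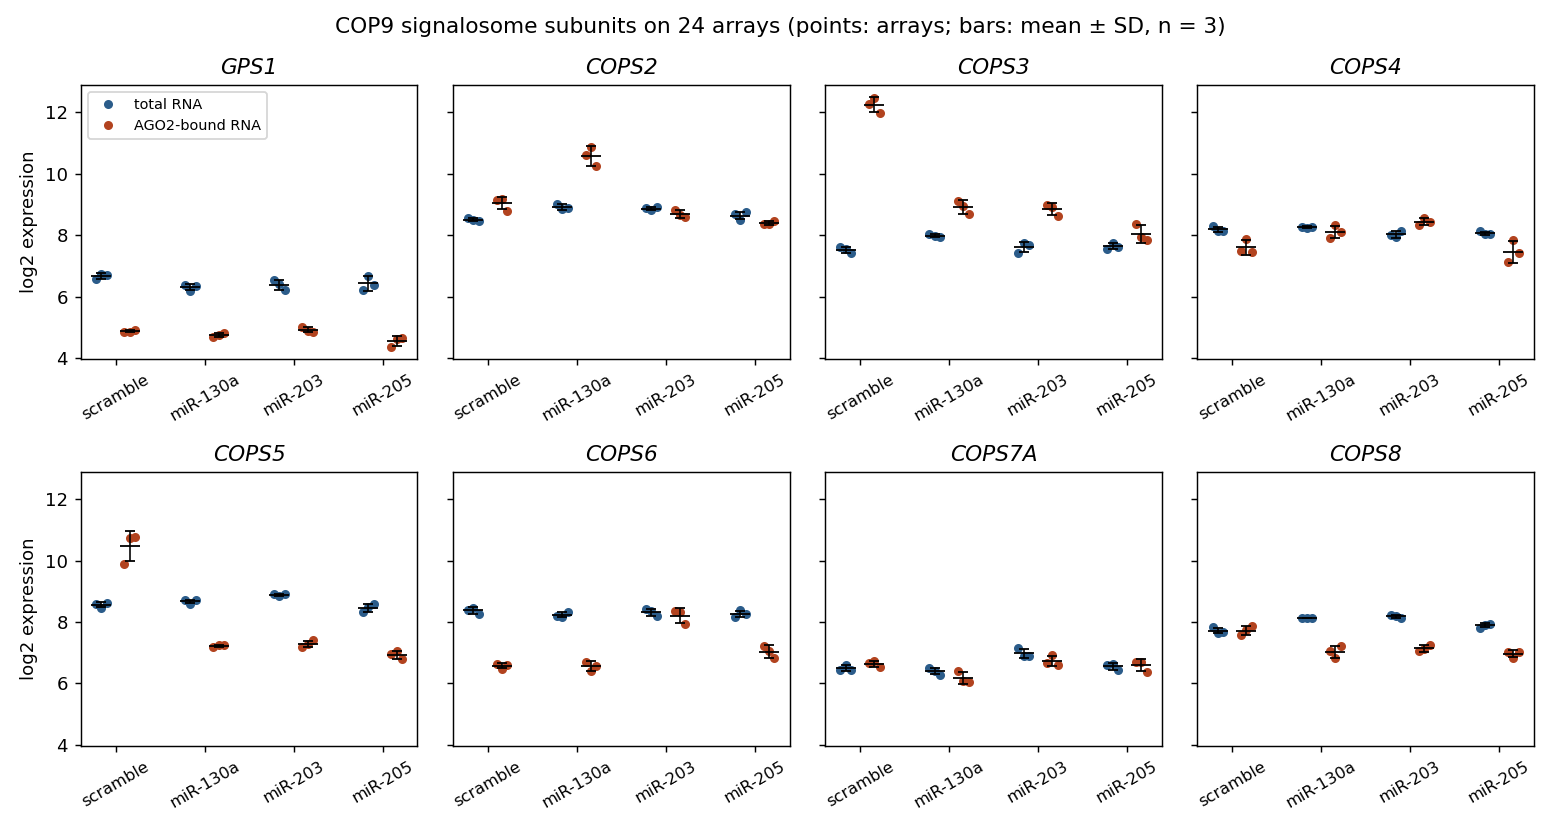
Log2 expression of the 8 COP9 signalosome genes in 8 groups: each panel is a gene, the x axis the transfection, points are arrays (blue, total RNA; red, AGO2-bound RNA) and bars the mean ± SD of 3 arrays. COPS3 on the AGO2-bound scramble arrays lay at 11.99 to 12.48 and COPS5 at 9.90 to 10.76, above all other arrays of the same gene.

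Of the 8 subunits, COPS3 and COPS5 left AGO2 after each of the 3 microRNAs, and no other subunit did. Leaving AGO2 is used here for a level at least 2-fold lower than scramble in AGO2-bound RNA, with all 3 arrays below all 3 scramble arrays. Of 6782 genes past the filter, 5.75% met this rule with miR-130a, 9.13% with miR-203 and 7.42% with miR-205, and 2.30% met it in all 3 comparisons. The comparisons share the 3 scramble arrays of AGO2-bound RNA, so a high scramble level alone lowers all 3 differences together. Because the members were proposed with these contrasts in view, nothing is read from their share. The member nearest to the 2-fold limit among those that met the rule was COPS5 after miR-203, with a difference of -3.18, and the nearest outside it was COPS8 after miR-205, with -0.76. In this bulk RNA, fewer cells that carry a transcript and less of it per cell cannot be told apart.

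COPS5 is the subunit that cuts NEDD8 from the cullin. In AGO2-bound RNA its scramble arrays read 9.90, 10.74 and 10.76, with replicate 1 the lowest. The miR-130a arrays read 7.18, 7.24 and 7.25. After miR-203 the values were 7.20, 7.27 and 7.40, and after miR-205 they were 6.94, 7.05 and 6.78. All 9 microRNA arrays thus lay between 6.78 and 7.40, apart from every scramble array. The log2 differences ± SE were -3.55 ± 0.20 with miR-205, -3.25 ± 0.20 with miR-130a and -3.18 ± 0.20 with miR-203, a 9.06- to 11.7-fold lower level. In total RNA the gene stayed between 8.32 and 8.92 on all 12 arrays. COPS5 therefore stood above its total RNA level in the scramble immunoprecipitate and below it in the other 3. The AGO2-bound minus total difference was 1.91 ± 0.16 for scramble, -1.45 ± 0.16 for miR-130a, -1.61 ± 0.16 for miR-203 and -1.54 ± 0.16 for miR-205. The order of the groups was AGO2-bound scramble, total miR-203, then total miR-130a, total scramble and total miR-205, whose neighbours overlapped, and last the 3 AGO2-bound microRNA groups.

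COPS3 is a PCI subunit in the module that also holds GPS1, COPS2 and COPS8. Its AGO2-bound scramble arrays read 12.27, 12.48 and 11.99. The miR-130a arrays read 9.11, 8.95 and 8.68, the miR-203 arrays 9.0, 8.93 and 8.64, and the miR-205 arrays 8.36, 7.93 and 7.84. Every scramble array lay above every microRNA array. The differences were -3.33 ± 0.18 with miR-130a, -3.39 ± 0.18 with miR-203 and -4.20 ± 0.18 with miR-205, or 10.1-, 10.5- and 18.4-fold lower. The miR-205 arrays also lay below those of the other microRNAs, by 0.87 ± 0.18 against miR-130a and 0.81 ± 0.18 against miR-203, and neither pair of groups overlapped. Total RNA held between 7.42 and 8.04. COPS3 was above its total RNA level in every immunoprecipitate, by 4.73 ± 0.15 for scramble, 0.93 ± 0.15 for miR-130a, 1.24 ± 0.15 for miR-203 and 0.41 ± 0.15 for miR-205. The last of these was 0.24 under the alternative setting where it was smallest. The order was AGO2-bound scramble, then AGO2-bound miR-130a and miR-203, which overlapped, then AGO2-bound miR-205 and total miR-130a, which overlapped, then the other total RNA groups.

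The miR-205 arrays were in the inferred normalization run of the scramble arrays, and the miR-130a and miR-203 arrays were not. The part of the run in the COPS3 and COPS5 differences was not tested. Both genes have a single named probe set, so no second one can be set beside these values. On the AGO2-bound arrays the mean of 45 spiked control probe sets was 7.78 ± 0.37 (SD, n = 3) for scramble, 7.64 ± 0.44 for miR-130a, 7.57 ± 0.30 for miR-203 and 7.61 ± 0.86 for miR-205. The 3 prime over 5 prime difference of ACTB, a sign of RNA integrity, was 3.40 ± 0.45, 2.55 ± 0.30, 2.68 ± 0.34 and 3.45 ± 0.43 in the same order. It was lower on the miR-130a and miR-203 arrays and close between miR-205 and scramble. The same difference of GAPDH was 1.40 ± 0.17, 1.25 ± 0.05, 0.77 ± 0.15 and 1.55 ± 0.17, with the miR-203 arrays below the other AGO2-bound arrays. On the total RNA arrays the group means were 6.41 to 6.61 for the spiked controls and 2.07 to 2.24 for ACTB. Both lay below the group means of the AGO2-bound arrays, so the 2 kinds of RNA were not alike in array quality. Among the AGO2-bound arrays the spiked control mean rose from replicate 1 to 3 in each group, from 6.88 to 8.57 for miR-205. Its SD there thus holds a step shared by replicate number. The SEs of AGO2-bound RNA are from the fit without the replicate number. The part of these array quality measures in the differences, those of AGO2-bound minus total RNA included, was not tested.

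**Figure D2:**
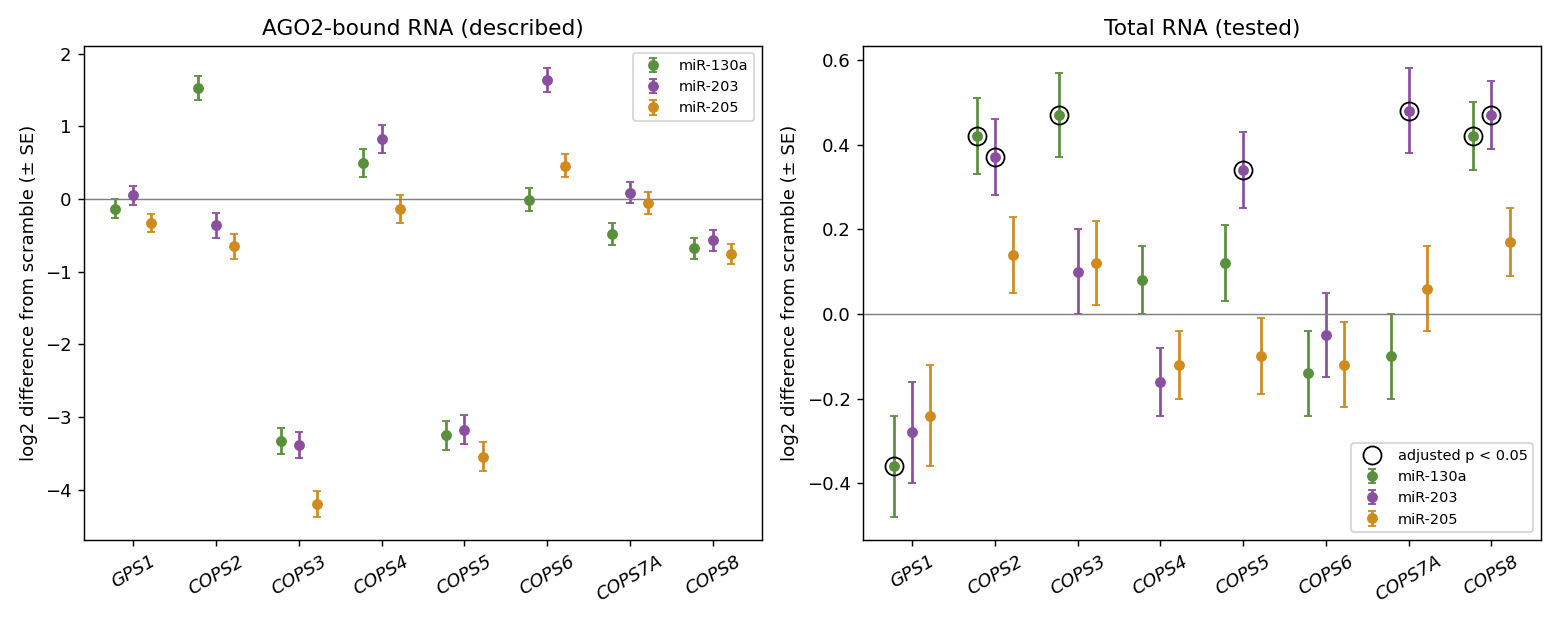
Log2 difference from scramble ± SE for each subunit in AGO2-bound RNA (left) and total RNA (right), by microRNA, with 3 arrays per group and a y axis of its own in each panel. On the left COPS3 and COPS5 lie between -3.18 and -4.20; on the right no value exceeds 0.48 in size, and black rings mark an adjusted p under 0.05 by limma.

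Among the other subunits, COPS2, COPS4 and COPS6 had higher AGO2-bound levels than scramble, without overlap, after at least 1 microRNA. COPS2, a subunit that contacts the cullin, read 10.61, 10.89 and 10.25 after miR-130a, against 9.15, 9.19 and 8.80 for scramble, 8.83, 8.65 and 8.60 for miR-203 and 8.37, 8.36 and 8.47 for miR-205. The miR-130a arrays lay above all other AGO2-bound arrays of the gene. The difference from scramble was 1.53 ± 0.17 with miR-130a, -0.36 ± 0.17 with miR-203 and -0.65 ± 0.17 with miR-205, and miR-130a exceeded miR-203 by 1.89 ± 0.17 and miR-205 by 2.18 ± 0.17. A second, dimmer COPS2 probe set gave 0.37 with miR-130a, -0.68 with miR-203 and -0.26 with miR-205, so the direction was shared and the size after miR-130a was not. The mean of both probe sets gave 0.95 after miR-130a. At least a 2-fold higher level without overlap was found at 7.65% of genes after miR-130a.

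COPS6, the MPN-domain partner of COPS5 without catalytic activity, was higher after miR-203. Its AGO2-bound arrays read 8.37, 8.34 and 7.92 after miR-203, and 6.63, 6.48 and 6.59 for scramble. The miR-130a arrays read 6.70, 6.39 and 6.58 and the miR-205 arrays 7.23, 7.04 and 6.81. The miR-203 group lay above the other 3, and the miR-205 group above scramble without overlap. The differences from scramble were 1.64 ± 0.16 after miR-203, 0.46 ± 0.16 after miR-205 and -0.01 ± 0.16 after miR-130a. The miR-203 group is also the one with the lowest GAPDH difference above. The second COPS6 probe set gave 1.38, 0.07 and -0.23, so the value after miR-205 was not shared by it. A level at least 2-fold higher without overlap was found at 10.1% of genes after miR-203. COPS6 in the miR-203 immunoprecipitate lay at its total RNA level, with an AGO2-bound minus total difference of -0.11 ± 0.13, whereas it was -1.81 ± 0.13 for scramble, -1.68 ± 0.13 for miR-130a and -1.23 ± 0.13 for miR-205.

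The remaining subunits differed from scramble by less than 2-fold in AGO2-bound RNA. COPS8, a small PCI subunit, was lower after all 3 microRNAs, at -0.68 ± 0.14, -0.57 ± 0.14 and -0.76 ± 0.14 after miR-130a, miR-203 and miR-205. Its scramble arrays read 7.56, 7.73 and 7.86 and the 9 microRNA arrays 6.83 to 7.26, without overlap. The next brightest COPS8 probe sets gave -0.49, -0.23 and -0.92, and -0.85, -0.68 and -0.79. The first of these overlapped scramble after miR-130a and miR-203. COPS4, a PCI subunit, was higher by 0.50 ± 0.19 with miR-130a and 0.83 ± 0.19 with miR-203 and differed by -0.14 ± 0.19 with miR-205. COPS7A was lower by 0.48 ± 0.15 after miR-130a, and its other differences were 0.09 ± 0.15 after miR-203 and -0.05 ± 0.15 after miR-205. GPS1 had differences of -0.13 ± 0.13, 0.05 ± 0.13 and -0.33 ± 0.13, and stood below its total RNA level in every immunoprecipitate, by log2 differences of -1.88 to -1.46. Its AGO2-bound arrays read 4.36 to 5.02 and its total RNA arrays 6.19 to 6.72.

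The median difference of the 8 subunits was -0.30, -0.15 and -0.49 after miR-130a, miR-203 and miR-205, against -0.0457, -0.0866 and -0.0626 over all genes. The groups did not overlap at 7, 5 and 6 of the 8 subunits, and at 51.7%, 60.2% and 51.4% of all genes. The other probe sets of COPS2, COPS6 and COPS8 that lay above the filter had the sign of the main one in 12 of 12 AGO2-bound comparisons. In total RNA the sign was shared in 10 of 12. There the second COPS6 probe set gave 0.07 against -0.14 after miR-130a and 0.30 against -0.05 after miR-203.

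**Figure D3:**
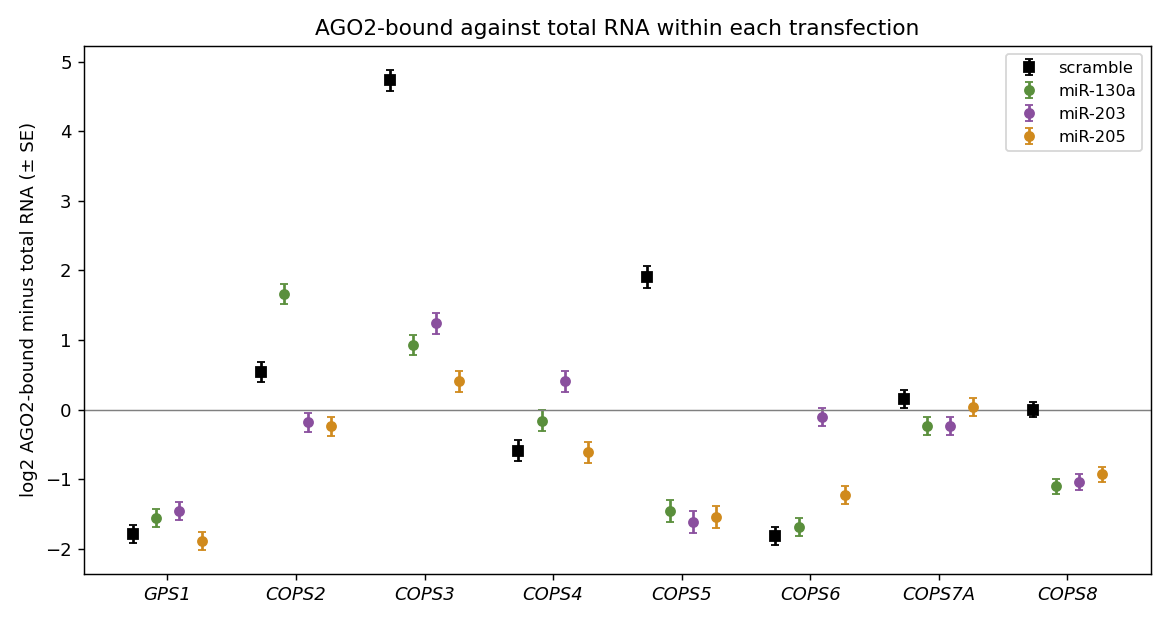
AGO2-bound minus total RNA (log2 difference ± SE) for each subunit within each transfection, with 3 arrays of each kind. COPS3 at 4.73 and COPS5 at 1.91 in scramble (black squares) stand apart from their values after the microRNAs, while GPS1 lies between -1.88 and -1.46 in all 4.

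Within a transfection, AGO2-bound and total RNA did not cross runs, but their arrays differed in the spiked control and ACTB values given above. Few subunits kept a like position in all 4 immunoprecipitates. GPS1 was below total RNA in each, and COPS7A was within 0.24 of total RNA in each. COPS8 differed by 0.00 ± 0.11 for scramble and lay at -1.10 to -0.93 after the microRNAs. The next brightest COPS8 probe set did not share the scramble value, with scramble means of 5.75 in AGO2-bound and 7.15 in total RNA. The third brightest shared it, at 6.46 and 6.48. Over the alternative settings the COPS8 difference for scramble ranged from -0.34 to 0.01. COPS2 exceeded total RNA by 0.54 ± 0.14 for scramble and 1.66 ± 0.14 after miR-130a, and its differences after miR-203 and miR-205 were -0.18 ± 0.14 and -0.24 ± 0.14. The second COPS2 probe set had AGO2-bound means of 4.88 against 3.76 in total RNA for scramble and 5.25 against 4.24 after miR-130a. After miR-203 its means were 4.20 against 4.24, and after miR-205 4.62 against 4.40. The greater excess after miR-130a and the sign after miR-205 were thus not shared by it. COPS4 lay at -0.59 ± 0.15 for scramble, -0.16 ± 0.15 with miR-130a, 0.41 ± 0.15 with miR-203 and -0.61 ± 0.15 with miR-205.

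In total RNA no subunit differed from scramble by more than 0.48. After miR-130a, COPS3 rose by 0.47 ± 0.10 (limma, adjusted p = 0.0038), COPS2 by 0.42 ± 0.09 (adjusted p = 0.0034) and COPS8 by 0.42 ± 0.08 (adjusted p = 0.0017), and GPS1 fell by 0.36 ± 0.12 (adjusted p = 0.046). These 3 higher and 1 lower of 8 stand beside 29.3% of genes called, 15.9% higher and 13.3% lower. The share of higher genes among those called was 54.5%, and 44.2% with quantile normalization. At these 4 subunits, and at 46.2% of all genes, the groups did not overlap, with COPS3 at 8.04, 7.98 and 7.94 against 7.60, 7.54 and 7.42. The GPS1 call ended without the filter on low signal (adjusted p = 0.097) and with the replicate number as a block (adjusted p = 0.062), though in total RNA the numbers did not pair the arrays. It also ended without total miR-130a replicate 1, 2 or 3 or without total scramble replicate 2 or 3 (-0.40 to -0.30, adjusted p up to 0.15).

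After miR-203, 4 of 8 subunits rose and none fell, where 39.6% of genes were called, 19.8% in each direction. COPS7A rose by 0.48 ± 0.10 (limma, adjusted p = 0.0026), from 6.44, 6.61 and 6.44 on the scramble arrays to 7.15, 6.88 and 6.90. COPS8 rose by 0.47 ± 0.08 (adjusted p = 0.00051), COPS2 by 0.37 ± 0.09 (adjusted p = 0.0049) and COPS5 by 0.34 ± 0.09 (adjusted p = 0.0081). All 4 genes were higher in 3 of 3 arrays than in any scramble array. The groups did not overlap at 5 of 8 subunits and at 49.1% of genes. The COPS5 call ended with all 24 arrays in the fit (adjusted p = 0.11). GPS1 stood at -0.28 ± 0.12 (adjusted p = 0.088).

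After miR-205, the one microRNA in the run of the scramble arrays, no subunit passed the test by limma, where 23.5% of genes did, 10.1% higher and 13.3% lower. The groups did not overlap at 1 of 8 subunits and at 37.3% of genes. The differences lay between -0.24 (GPS1) and 0.17 (COPS8), and the 95% intervals of the 8 subunits together spanned -0.51 to 0.34. For COPS3 the interval was -0.09 to 0.33 and for COPS5 -0.28 to 0.09. GPS1 passed without total miR-205 replicate 2, at -0.37 (adjusted p = 0.044), and COPS2 passed with the mean of both its probe sets, at 0.39 (adjusted p = 0.0014). The second COPS2 probe set alone differed by 0.64, against 0.14 ± 0.09 for the first.

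Set directly against each other, the total RNA levels differed between microRNAs at 3 of 8 subunits in each of the 3 pairs, where 45.2%, 38.8% and 41.8% of genes were called. COPS7A was higher after miR-203 than after miR-205 by 0.42 ± 0.10 (limma, adjusted p = 0.0052), and the difference of miR-130a from miR-203 was -0.58 ± 0.10 (adjusted p = 0.00058). COPS5 was higher after miR-203 than after miR-205 by 0.43 ± 0.09 (adjusted p = 0.0016). COPS3 was higher after miR-130a than after miR-203 by 0.37 ± 0.10 (adjusted p = 0.0079) and than after miR-205 by 0.35 ± 0.10 (adjusted p = 0.013). COPS8 was higher after miR-203 than after miR-205 by 0.30 ± 0.08 (adjusted p = 0.0078). The remaining calls were COPS4, higher after miR-130a than after miR-203 by 0.24 (adjusted p = 0.032), and COPS2 and COPS8, higher after miR-130a than after miR-205 by 0.28 (adjusted p = 0.021) and 0.25 (adjusted p = 0.022). With all 24 arrays in the fit, each of these calls of COPS2, COPS4 and COPS8 ended (adjusted p = 0.13 for COPS2, 0.23 for COPS4, and 0.11 and 0.052 for COPS8 with miR-130a and miR-203). Each array centred on its median also ended the COPS2, COPS4 and COPS8 calls with miR-130a (0.19, 0.18 and 0.16), and the mean of both probe sets gave 0.06 for COPS2. Leaving out single arrays ended these calls too. The COPS4 call ended without total miR-130a replicate 1, 2 or 3 or without total miR-203 replicate 1 or 2, the COPS2 call without total miR-130a replicate 1 or total miR-205 replicate 2, and the COPS8 call between miR-130a and miR-205 without total miR-130a replicate 2 or 3 or total miR-205 replicate 1 (0.18 to 0.25 over these, adjusted p = 0.057 to 0.12 by limma). Both COPS3 calls ended with all 24 arrays in the fit (adjusted p = 0.057 and 0.085), and the second COPS3 call ended also without total miR-205 replicate 1 (adjusted p = 0.052). All of these pairs cross the inferred normalization runs.

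COPS7B, the paralog of COPS7A, was measured by a dim probe set. It lay at 3.01 to 3.58 in total RNA and 4.82 to 5.79 in AGO2-bound RNA, and the scramble arrays read 5.79, 5.59 and 5.42. Its AGO2-bound minus total difference was 2.30 ± 0.18 for scramble and 1.70 to 1.84 after the microRNAs. In total RNA COPS7B did not pass limma's test after any microRNA (adjusted p = 1, 0.32 and 0.76 after miR-130a, miR-203 and miR-205). The 95% intervals were -0.26 to 0.27, -0.11 to 0.42 and -0.33 to 0.20 in the same order.

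**Figure D4:**
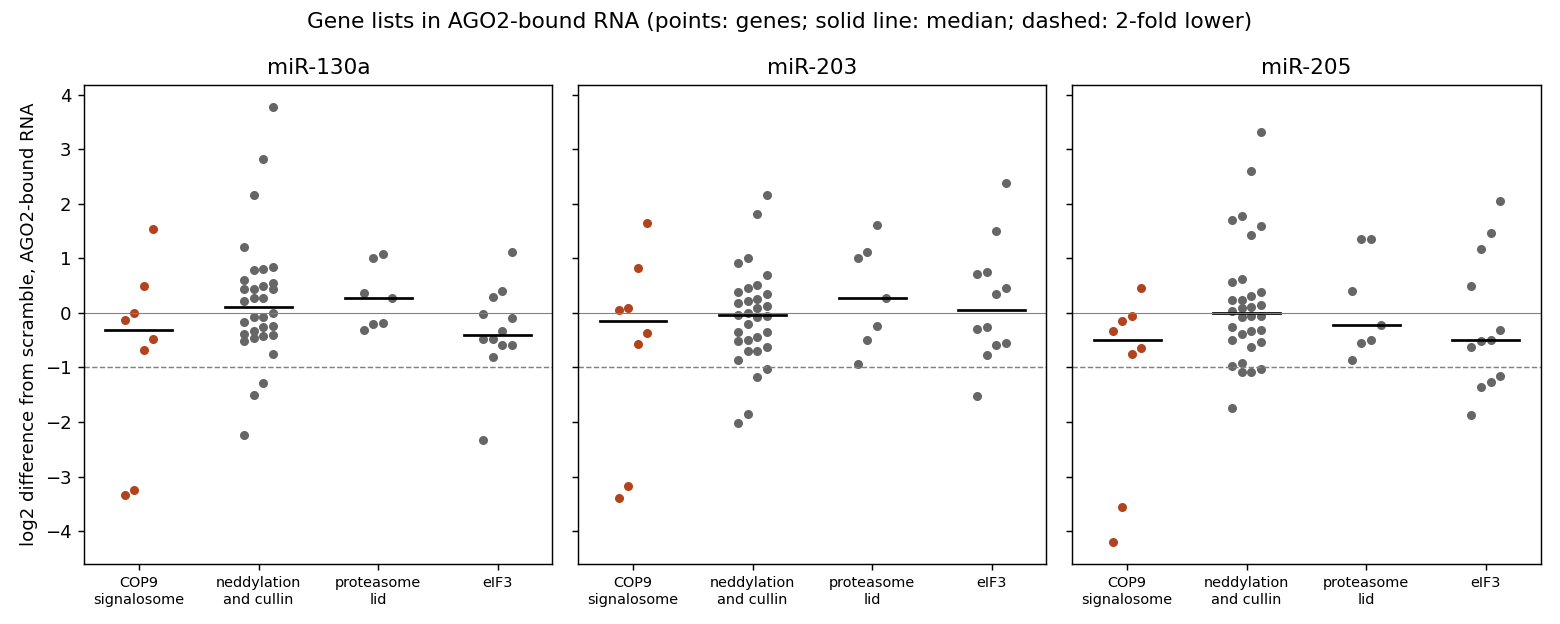
Log2 difference from scramble in AGO2-bound RNA for the genes of 4 lists, 1 panel per microRNA; points are genes, solid lines medians and the dashed line marks 2-fold lower. COPS3 and COPS5 are the lowest points of the COP9 signalosome list, at -3.18 to -4.20, and no gene of the other lists lies below -2.33. The complex was selected on these differences, so nothing is read from its place against the other lists. CUL2 and DDB2 of the neddylation and cullin list also lie below the dashed line in every panel.

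The list of neddylation and cullin genes covers the machinery on which the complex acts. Of 32 neddylation and cullin genes tested, 5 rose and 11 fell in total RNA after miR-130a, 6 rose and 4 fell after miR-203, and 4 rose and 5 fell after miR-205. Over all genes 15.9%, 19.8% and 10.1% were called higher and 13.3%, 19.8% and 13.3% lower in these comparisons. The list medians were -0.05, -0.01 and 0.02, against 0.0109, 0.0102 and -0.00791 over all genes. The 3 genes with the smallest p after miR-130a were the cullin CUL5 (-0.66 ± 0.09), the RING subunit RNF7 (-0.78 ± 0.10) and the F-box protein gene FBXW7 (1.13 ± 0.18). After miR-203 they were the cullin CUL4B (-0.75 ± 0.08), the NEDD8 ligase component DCUN1D4 (-1.14 ± 0.14) and KLHL12 (-0.89 ± 0.14), an adaptor of CUL3. After miR-205 they were KEAP1 (-0.77 ± 0.10), also a CUL3 adaptor, DCUN1D1 (0.55 ± 0.10) and CUL4A (0.48 ± 0.09). All 9 of these differences passed limma's test.

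In AGO2-bound RNA, 3 of the 32 genes left AGO2 with miR-130a, 4 with miR-203 and 4 with miR-205, and 4, 3 and 6 were at least 2-fold higher without overlap. Over all genes 5.75%, 9.13% and 7.42% left AGO2 and 7.65%, 10.1% and 9.32% were at least 2-fold higher without overlap. The list medians were 0.10, -0.04 and -0.01, against -0.0457, -0.0866 and -0.0626 over all genes. The differences of greatest size were RNF7 (3.78 ± 0.18), ELOC (2.82 ± 0.18) and CUL2 (-2.23 ± 0.22) after miR-130a. After miR-203 they were ELOB (2.16 ± 0.23), FBXW7 (-2.01 ± 0.16) and CUL2 (-1.86 ± 0.22). After miR-205 they were KEAP1 (3.32 ± 0.16), NEDD8 itself (2.61 ± 0.20) and CUL5 (1.77 ± 0.15).

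The proteasome lid and the translation factor eIF3 are built from PCI and MPN subunits like the COP9 signalosome. None of 7 lid genes left AGO2 after any of the 3 microRNAs, and 2, 3 and 2 were at least 2-fold higher. PSMD11 was among those in all 3 comparisons, at 1.08 ± 0.18, 1.01 ± 0.18 and 1.35 ± 0.18. PSMD12 (1.01 ± 0.17) joined it after miR-130a, PSMD8 (1.61 ± 0.18) and PSMD3 (1.11 ± 0.18) after miR-203 and PSMD8 (1.35 ± 0.18) after miR-205. Of 12 eIF3 genes, 1 left AGO2 after miR-130a (EIF3L, -2.33 ± 0.16), 1 after miR-203 (EIF3J, -1.52 ± 0.18) and 4 after miR-205, with EIF3L at -1.88 ± 0.16, EIF3E at -1.36 ± 0.14, EIF3F at -1.27 ± 0.23 and EIF3K at -1.15 ± 0.17. In the other direction EIF3B was higher by 1.11 ± 0.15 after miR-130a and 1.18 ± 0.15 after miR-205, and EIF3G by 2.38 ± 0.22 after miR-203 and 2.05 ± 0.22 after miR-205. These counts of lid and eIF3 genes stand beside the same shares over all genes, 5.75%, 9.13% and 7.42% for leaving AGO2 and 7.65%, 10.1% and 9.32% for a level at least 2-fold higher. EIF3I was at least 2-fold higher after miR-203, and EIF3M was higher by 1.46 ± 0.19 after miR-205.

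The genes whose values followed those of COPS3 most closely over the 24 arrays were SCAMP2 and GYG1 (Pearson r = 0.98 each) and MTA2 (0.95). For COPS5 they were TMEM126B (0.99), NGLY1 (0.98) and CCNG1 (0.97). The arrays share 8 groups, and the AGO2-bound scramble arrays stand apart, so these values describe a shared contrast of that group with the rest. In AGO2-bound RNA after miR-130a, miR-203 and miR-205, SCAMP2 differed from scramble by -2.34, -2.53 and -2.82 and TMEM126B by -3.73, -3.73 and -3.93. For CCNG1 the differences were -4.15, -4.3 and -4.44, so falls of this size were not particular to the subunits.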

How the data were processed

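The authors deposited log2 values, 1 per probe set and array. R 2.9.0, GCRMA and RMA are named in the submitters' processing notes, without order. The values were used as deposited.

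Of 22277 probe sets, 19064 had 1 gene symbol in the platform annotation, and 19052 matched a reference gene table by gene ID. Each gene was measured by the probe set with the highest mean over 24 arrays, and 6782 genes with a mean of at least 2.85, the median of the probe set means, were tested. Limma 3.58.1 in R 4.3.3 (lmFit, eBayes) fitted the 12 AGO2-bound and the 12 total RNA arrays apart, and all 24 for AGO2-bound against total RNA. P-values were adjusted over these genes (Benjamini-Hochberg). The code was tested on simulated data. No 2 arrays held identical values. Alternatives were no filter, the mean of all probe sets, quantile normalization, centring, a trended robust prior, array weights, all 24 arrays in the fit, the replicate block and leaving out each array.

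The members and lists were chosen with earlier results of these data known. All 8 members are reported; list genes were named by smallest p (total RNA) or greatest difference (AGO2-bound RNA), lid and eIF3 genes among those past 2-fold, and like genes by Pearson correlation.

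Groups share replicate numbers 1 to 3. Deviations of same-numbered AGO2-bound arrays from their group means correlated at 0.11 to 0.52 (miR-130a with scramble) and 0.16 to 0.58 (miR-203), which pairs them as a property of the data. They correlated at -0.04 to 0.52 for miR-205 and at -0.10 to 0.05 in total RNA. Nothing names separate cultures, so p-values measure only the spread between these arrays, which may be technical.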

Additional observations from a re-analysis of the deposited data

Results flagged for a closer look

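The subunits and microRNAs below are listed because the change from scramble differed between AGO2-bound and total RNA in limma's interaction term. That term holds the AGO2-bound contrasts on which the complex was selected, so the listing restates that choice, and the values are given as a description with no test. The AGO2-bound change minus that in total RNA was -3.80 ± 0.21, -3.49 ± 0.21 and -4.32 ± 0.21 (log2 ± SE) for COPS3 after miR-130a, miR-203 and miR-205. For COPS5 it was -3.36 ± 0.22, -3.52 ± 0.22 and -3.45 ± 0.22. COPS8 had -1.10 ± 0.16, -1.04 ± 0.16 and -0.93 ± 0.16. COPS2 had 1.11 ± 0.19 after miR-130a, and -0.72 ± 0.19 and -0.79 ± 0.19 after miR-203 and miR-205. COPS6 had 1.69 ± 0.19 after miR-203 and 0.58 ± 0.19 after miR-205, and COPS4 had 0.99 ± 0.21 after miR-203. The mean of all probe sets gave 0.50 for COPS2 after miR-130a and 0.34 for COPS6 after miR-205. It gave -0.86, -0.71 and -0.71 for COPS8 after miR-130a, miR-203 and miR-205. After miR-203 it gave 1.39 for COPS6 and -0.94 for COPS2.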

How the results depend on the processing

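The AGO2-bound values in this paragraph come from the contrasts on which the complex was selected and are a description. The count of subunits that left AGO2 was 2 after each microRNA under all 8 alternative settings and without any single array. COPS3 ranged from -4.36 to -3.22 and COPS5 from -3.83 to -3.03 over the 3 microRNAs and these settings. In total RNA the count of called subunits ranged from 3 to 4 after miR-130a and was 4 after miR-203 when 1 array was left out. After miR-205 it ranged from 0 to 1, and it was 1 with the mean of all probe sets per gene. With the replicate number as a block, the GPS1 call after miR-130a in total RNA ended (-0.36, adjusted p = 0.062), and COPS2 differed between miR-203 and miR-205 (0.23, adjusted p = 0.046). This COPS2 call also arose without the filter, with quantile normalization, with the trended prior and without total miR-205 replicate 3. In total RNA COPS5 gained a call between miR-130a and miR-203 under 6 of the 8 alternative settings. Between miR-130a and miR-205, COPS4 gained a call under 4 settings and COPS5 under 3, leaving out 1 array included. COPS6 gained a call between miR-203 and miR-205 with the mean of all probe sets. No count of subunits called against scramble moved by over 1.5 times under the block. The cause of these changes was not tested. The dimmest COPS8 probe set lay below the filter on low signal and was left out of the comparison of signs.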
